A study of Mus musculus with 10 samples.

Results

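The calcium, cAMP and MAPK plasticity kinases are a list of 38 mouse genes that carry synaptic calcium and cAMP signals to the nucleus. They were taken by symbol, and all 38 were found among the 48709 gene identifiers of the count tables. The list was drawn up by branch. It holds 10 genes of calmodulin and the calmodulin-dependent kinases, 12 of protein kinase A (PKA) and the adenylyl cyclases, and 3 of protein kinase C (PKC). It also holds 3 genes of calcineurin, 3 of the MAPK cascade, 3 of CDK5, and 4 of CREB and its coactivators, the CRTC proteins.

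Calcium that enters a neuron through NMDA receptors and voltage-gated channels binds calmodulin. Calcium-calmodulin switches on CaMKII, the CaMKK kinases, the phosphatase calcineurin and the calcium-sensitive adenylyl cyclases. Cyclic AMP made by the cyclases frees the catalytic subunits of PKA from their regulatory subunits. PKA, CaMKIV and kinases downstream of ERK phosphorylate the transcription factor CREB, and calcineurin helps CRTC coactivators into the nucleus. In the hippocampus these enzymes are known for their part in long-term potentiation and memory.

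Polyadenylated RNA was sequenced from primary mouse hippocampal neurons, labelled 10 DIV (days in vitro). One group of 6 libraries had received tunicamycin at 2 ug/mL for 6 h, and the other group of 4 libraries had received DMSO for 6 h. Tunicamycin blocks N-linked glycosylation and so causes endoplasmic reticulum stress, and DMSO is its solvent. No strain, genotype, sex or age of the donor animals is named in the labels. Nor do they say that the libraries were separate cultures or animals, so a p-value here reflects library-to-library spread that could be technical only.

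The libraries held 21055289 to 29234887 counts each. Levels are given in CPM, the counts of a gene per 1000000 counts of its library, and differences as log2 fold changes of tunicamycin against DMSO from edgeR's quasi-likelihood test over all 10 libraries. A gene was called higher or lower at a Benjamini-Hochberg adjusted p under 0.05 over 15660 tested genes. The response was wide: 10065 genes (64.3%) were called, 4983 (31.8%) higher and 5082 (32.5%) lower. Within their groups DMSO replicate 1 and tunicamycin replicate 1, both from lane 1, stood apart. Chi-square per degree of freedom was 5.15 to 9.64 between DMSO replicate 1 and the other DMSO libraries, which were at 3.05 to 3.85 among themselves. It was 3.26 to 6.87 between tunicamycin replicate 1 and the others of its group, which were at 2.07 to 3.36. Values without these libraries are given beside each result that they decide. The labelled cell type was checked against marker genes. The sum of 10 pan-neuronal markers was 7605 to 8106 CPM with DMSO and 6423 to 6747 CPM with tunicamycin, so these markers were abundant in both groups. Markers of other cells were present as well, and 9 astrocyte markers summed to 2933 to 3302 CPM with DMSO and 2041 to 2264 CPM with tunicamycin. Markers of microglia summed to 16.7 to 21.3 CPM and 11.95 to 14.9 CPM, and those of oligodendrocyte precursors to 145 to 199 CPM and 86.2 to 110 CPM, in the same order. None of the listed markers was at 0 in every library. Neuronal and glial marker sums were both lower with tunicamycin, as were most members, and their part in the results below was not tested. In these bulk libraries fewer cells of a type and less RNA per cell cannot be told apart.

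All 38 members passed the filter on low counts. Of them 7 were called higher, 24 lower and 7 were not called, beside 31.8% and 32.5% of all tested genes called higher and lower. The CPM ranges of the groups did not overlap for 25 members, 7 higher and 18 lower. Over all tested genes 50.9% did not overlap, 27.0% higher and 23.9% lower. The median log2 fold change of the members was -0.12, with a range of -0.55 to 0.64, beside -0.02 for all tested genes. Most of the changes were small: 4 members were called and at least 1.25-fold higher, and 9 were called and at least 1.25-fold lower. The same rule took 19.3% of all tested genes as higher and 17.7% as lower. By branch, the medians were -0.32 for the MAPK genes, -0.23 for CDK5, -0.22 for the calmodulin kinases, -0.11 for PKC, -0.10 for PKA with the cyclases, -0.10 for calcineurin and 0.54 for CREB and the CRTC genes.

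**Figure D1:**
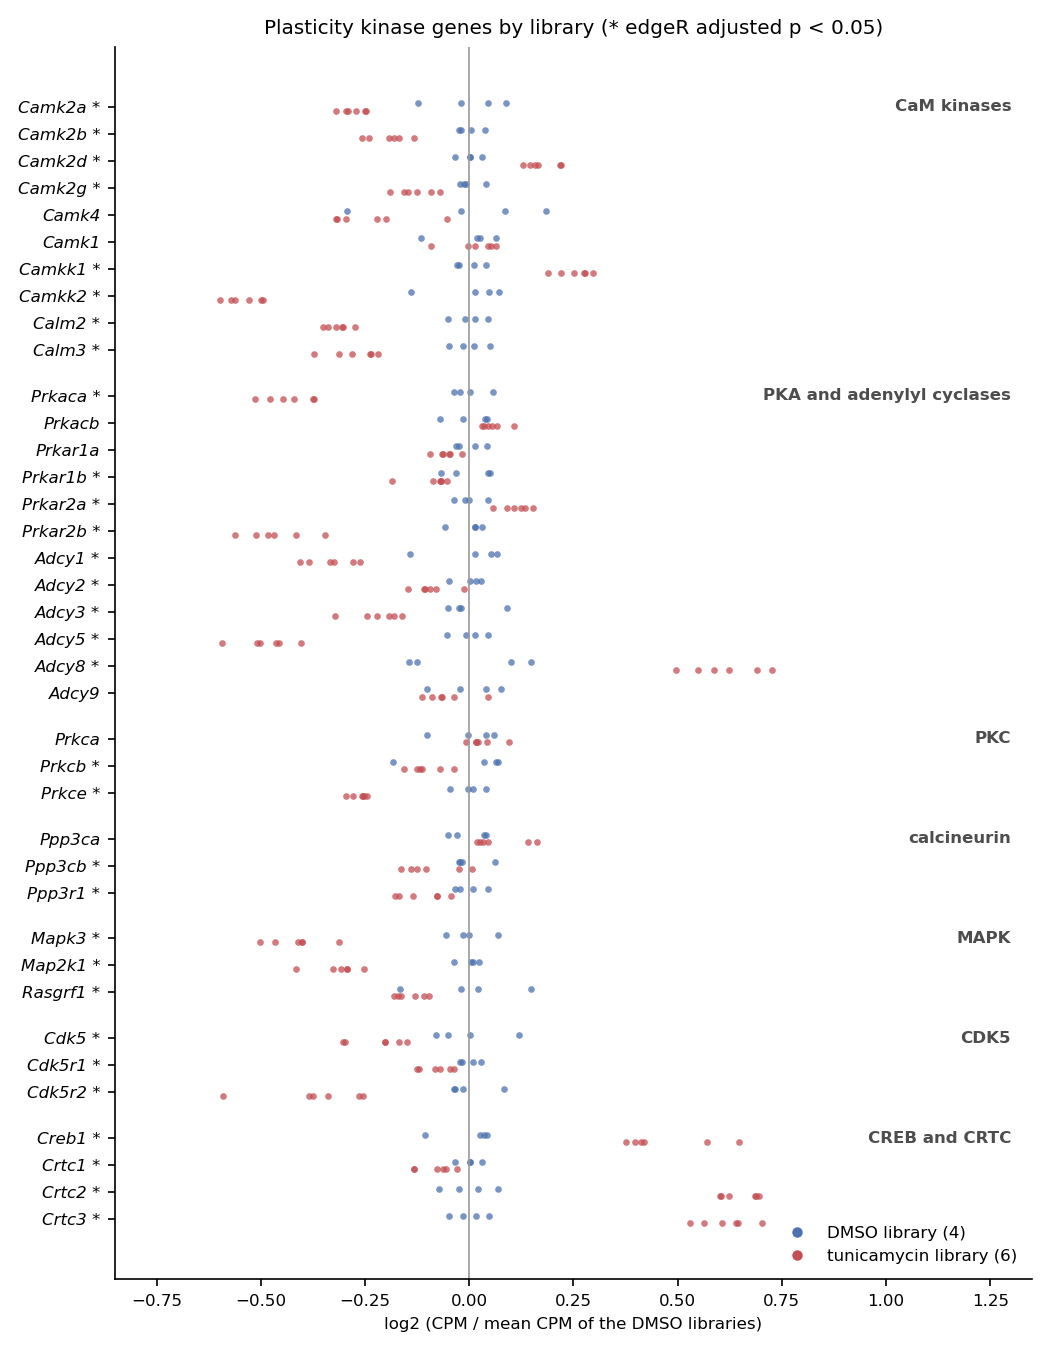
Dot plot of the 38 members (rows, by branch); each point is a library, at the log2 of its CPM over the mean CPM of the 4 DMSO libraries, and an asterisk marks an edgeR adjusted p under 0.05. Crtc2, Crtc3, Creb1 and Adcy8 stand out as higher in all 6 tunicamycin libraries, and Camkk2, Adcy5, Prkar2b, Prkaca and Mapk3 as lower.

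Scaling matters for members with small changes. With upper-quartile scaling the median log2 fold change of all tested genes moved by -0.11, and 3632 genes were called higher and 6934 lower in place of 4983 and 5082. The members then split into 5 higher and 28 lower (23.2% and 44.3% of all genes). They split into 7 and 24 with DESeq2 (23.5% and 22.3%), 7 and 25 at a mean of at least 1 CPM (35.1% and 34.8%), 8 and 19 with no filter on low counts (17.6% and 16.2%), and 7 and 24 with lane as a term (31.6% and 32.0%). On the 8 libraries numbered 1 to 4 they split into 6 and 21 with a replicate block (28.7% and 28.6%) and 6 and 22 without one (30.5% and 30.9%). Of the 31 called members, 22 had the same call in all 15 alternative fits, 5 of them higher (Camkk1, Adcy8, Creb1, Crtc2 and Crtc3) and 17 lower. These 15 do not include the fits on 8 libraries. The share of all called genes that kept their call is not given here, so the count does not set the members apart. In the 3 sequencing lanes taken alone, by ratios of mean CPM with no test, 30 of the 31 called members moved in the same direction in every lane. The exception was Ppp3cb. The lanes are parts of the 10 libraries that gave the calls, so this agreement is not independent evidence. Its share over all called genes is not given here either. The only DMSO library of lane 2 was replicate 3, and that of lane 3 was replicate 4.

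Promoters are shown for 6 members because the text returns to these genes: a pair of kinases that moved in opposite directions (Camkk1, Camkk2), 2 of the 3 CREB branch genes that rose (Creb1 and Crtc3; Crtc2 is named only), and the members holding a full cAMP response element (Prkar1a) or an endoplasmic reticulum stress response element (Adcy3). Each is the stretch of 250 bases before the annotated start on the gene's strand, from RefSeq on GRCm38.p6. Capitals mark the cAMP response element TGACGTCA, its shorter core TGACG, the CCAAT box, and CCAAT followed 9 bases later by CCACG (the stress response element), on either strand; TGACG also lies inside TGACGTCA, and CCAAT inside the stress element.
Camkk1, chr11:73018738-73018987 (+): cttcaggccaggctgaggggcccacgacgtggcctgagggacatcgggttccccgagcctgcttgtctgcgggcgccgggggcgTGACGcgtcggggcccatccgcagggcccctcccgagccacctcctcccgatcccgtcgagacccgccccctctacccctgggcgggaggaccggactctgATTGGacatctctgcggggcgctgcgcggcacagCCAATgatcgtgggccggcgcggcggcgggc
Camkk2, chr5:122779411-122779660 (-): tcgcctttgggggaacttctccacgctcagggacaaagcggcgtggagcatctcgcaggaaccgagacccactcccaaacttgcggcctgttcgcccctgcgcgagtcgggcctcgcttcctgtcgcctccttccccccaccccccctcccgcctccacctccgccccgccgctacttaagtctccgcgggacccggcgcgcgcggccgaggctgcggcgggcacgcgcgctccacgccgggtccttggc
Creb1, chr1:64532554-64532803 (+): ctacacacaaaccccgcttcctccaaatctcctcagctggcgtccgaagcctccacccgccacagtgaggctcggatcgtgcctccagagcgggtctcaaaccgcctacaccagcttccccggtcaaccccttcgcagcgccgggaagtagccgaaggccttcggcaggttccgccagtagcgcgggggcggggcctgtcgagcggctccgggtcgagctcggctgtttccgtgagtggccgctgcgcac
Crtc3, chr7:80688878-80689127 (-): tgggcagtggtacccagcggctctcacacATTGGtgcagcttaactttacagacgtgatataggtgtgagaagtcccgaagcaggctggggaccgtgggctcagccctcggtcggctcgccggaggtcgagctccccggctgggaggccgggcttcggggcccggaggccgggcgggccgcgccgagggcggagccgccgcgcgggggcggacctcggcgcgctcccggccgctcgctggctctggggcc
Prkar1a, chr11:109650699-109650948 (+): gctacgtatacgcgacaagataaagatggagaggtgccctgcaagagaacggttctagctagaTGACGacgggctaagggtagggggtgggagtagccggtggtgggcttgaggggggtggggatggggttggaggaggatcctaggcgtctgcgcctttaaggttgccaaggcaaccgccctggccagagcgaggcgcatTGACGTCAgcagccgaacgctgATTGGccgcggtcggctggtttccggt
Adcy3, chr12:4133147-4133396 (+): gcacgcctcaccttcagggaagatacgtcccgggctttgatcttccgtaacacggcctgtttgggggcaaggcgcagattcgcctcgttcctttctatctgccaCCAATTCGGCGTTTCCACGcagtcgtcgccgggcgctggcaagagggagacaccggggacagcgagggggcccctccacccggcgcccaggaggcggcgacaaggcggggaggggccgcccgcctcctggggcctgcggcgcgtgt

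RefSeq windows were found for 27 of the 38 members, 41 windows in all. TGACGTCA was in 1.55% of all 32851 windows and, among the members, only in a window of Prkar1a, at 49 to 42 bases before the start. Its core TGACG was in 17.8% of all windows and in 14 of the 41 member windows. These belong to 12 members, of which 7 were called lower, 1 (Camkk1) higher and 4 were not called. Of all 38 members 24 were called lower, 7 higher and 7 were not called, beside 32.5% lower and 31.8% higher of all tested genes. The 38 include members without a window, and the calls of the 27 with one are not given apart. Whether the core bears on the calls was not tested. The CCAAT box was in 33.8% of all windows and in 12 of the 41. The stress response element was in 0.113% of all windows and, among the members, only in that of Adcy3, at 146 to 128 bases before the start. The promoter windows of the members held no TTGCATCA (the CARE element, 0.791% of all windows), TGACGTGG (0.563%), GCGTGGGCG (the EGR site, 0.536%) or TGANTCA (the AP-1 site, 6.75%). These matches describe letters in a window, and no binding was measured.

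Calmodulin, the calcium sensor of the branch, was measured by Calm2 and Calm3, which encode the same protein. Calm3 was the most abundant member per length (652 CPM per kilobase of exon with DMSO) and Calm2 the next (466). Calm2 was at 679, 661, 691 and 706 CPM in the DMSO libraries and at 537 to 566 CPM, median 551, with tunicamycin. Calm3 was at 1592, 1527, 1634 and 1563 CPM with DMSO and 1219 to 1357 CPM, median 1319, with tunicamycin. Neither gene's groups overlapped, and edgeR gave log2 fold changes of -0.32 ± 0.03 for Calm2 (SE, adjusted p = 3.93e-09) and -0.28 ± 0.03 for Calm3 (adjusted p = 1.16e-07). The Calm3/Calm2 ratio was 2.31 with DMSO and 2.37 with tunicamycin, and the log2 difference of 0.04 ± 0.03 did not pass (two-sided exact permutation test, adjusted p = 0.343). Of the 50-base words of Calm2, 9.72% also occur in another gene, Gm7308, which was at 0.162 CPM with DMSO.

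CaMKII, the abundant synaptic kinase that can keep itself active by autophosphorylation, is built from 4 genes. They did not move together. Camk2a, which encodes the alpha subunit typical of excitatory forebrain neurons, was at 881, 946, 1019 and 989 CPM with DMSO and 768 to 808 CPM, median 789, with tunicamycin. Camk2b, the actin-binding beta subunit, was at 873, 858, 893 and 855 CPM with DMSO and 727 to 793 CPM, median 764, with tunicamycin. Every tunicamycin library was below every DMSO library for both genes, with log2 fold changes of -0.29 ± 0.04 and -0.20 ± 0.03 (edgeR, adjusted p = 4.87e-07 and 3.86e-06). The Camk2b/Camk2a ratio was 0.908 with DMSO and 0.961 with tunicamycin, and the log2 difference of 0.08 ± 0.05 did not pass (two-sided exact permutation test, adjusted p = 0.107). Without DMSO replicate 1 it was 0.12 and passed (exact permutation test, adjusted p = 0.0153).

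The more widely expressed subunits went in opposite directions. Camk2g fell from 134 ± 2.66 CPM (SD, n = 4) to 122 ± 3.73 CPM (n = 6), a log2 fold change of -0.14 ± 0.03 (adjusted p = 0.000762, edgeR). Camk2d was at 89.5, 87.7, 87.7 and 85.6 CPM with DMSO and 95.9 to 102 CPM with tunicamycin, a log2 fold change of 0.16 ± 0.03 (adjusted p = 0.000109, edgeR). The groups overlapped for neither gene. The rise of Camk2d was 0.05 with upper-quartile scaling and was then not called (adjusted p = 0.168, edgeR). The Camk2g/Camk2d ratio needs no scaling between libraries. It went from 1.52 to 1.24, a log2 difference of -0.30 ± 0.04 with no overlap (two-sided exact permutation test, adjusted p = 0.00659).

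Of the ratios within the calmodulin branch, that of Camkk2 to Camkk1 moved most. CaMKK proteins phosphorylate and activate CaMKI and CaMKIV, and CaMKK2 also activates AMPK. Camkk2 (GRCm38, chromosome 5, 122731170 to 122779409, minus strand) was at 66.5, 75.7, 76.9 and 74.0 CPM with DMSO and 48.4 to 52.0 CPM, median 50.2, with tunicamycin, and had the lowest log2 fold change of all 38 members (-0.55). Camkk1 (chromosome 11, 73019008 to 73042073, plus strand) was at 46.5, 46.4, 48.6 and 47.7 CPM with DMSO and 53.9 to 58.1 CPM, median 56.8, with tunicamycin. It rose by a log2 fold change of 0.24 ± 0.04 (adjusted p = 3.84e-06, edgeR). With DMSO every library held more counts of Camkk2 than of Camkk1, and with tunicamycin every library held fewer. These counts are not corrected for length, and with either length the order did not change between groups. Per exonic kilobase Camkk1 was the higher in both (12.7 against 6.71 CPM with DMSO, 15.1 against 4.61 with tunicamycin). By coding transcript length Camkk2 was the higher in both (26.6 against 13.8 with DMSO, 18.3 against 16.5 with tunicamycin). The Camkk2/Camkk1 ratio went from 1.55 to 0.893, a log2 difference of -0.79 ± 0.05 (two-sided exact permutation test, adjusted p = 0.00659). The promoter windows printed above differ in that Camkk1 holds TGACG and 2 CCAAT boxes, while Camkk2 holds none of the 8 motifs searched. TGACG was in 17.8% and the CCAAT box in 33.8% of all windows, and whether they bear on these changes was not tested.

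The 2 members that CaMKK proteins activate, Camk1 and Camk4, were not called. Camk1 was at 17.2 ± 0.909 CPM with DMSO and 17.3 ± 0.676 CPM with tunicamycin, a log2 fold change of 0.01 ± 0.05 (adjusted p = 0.914, edgeR). Camk4, the nuclear kinase that phosphorylates CREB, was at 278, 362, 336 and 387 CPM with DMSO and 273 to 328 CPM, median 285, with tunicamycin. DMSO replicate 1 was the lowest of its group and lay within the range of the tunicamycin libraries. The log2 fold change of Camk4 was -0.24 ± 0.10 (adjusted p = 0.0521, edgeR). Without DMSO replicate 1 it was -0.33 and was called (adjusted p = 0.000548, edgeR), and it was also called with DESeq2, with upper-quartile scaling, at a mean of at least 1 CPM and without tunicamycin replicate 1 (adjusted p 0.00661 to 0.0459). The Camk4/Camk1 ratio went from 19.7 to 16.7 and did not pass (two-sided exact permutation test, adjusted p = 0.0857), while without DMSO replicate 1 it passed (log2 difference -0.35, adjusted p = 0.0153). Of 12 other genes of the calmodulin branch 10 were called lower and 1 higher, with a median log2 fold change of -0.23. The gene with the largest fall was Camk2n1, an inhibitor of CaMKII, from 50.1 to 37.0 CPM (log2 fold change -0.44). The 1 that rose was Camk1d, another CaMKI kinase, from 143 to 169 CPM (0.24).

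**Figure D2:**
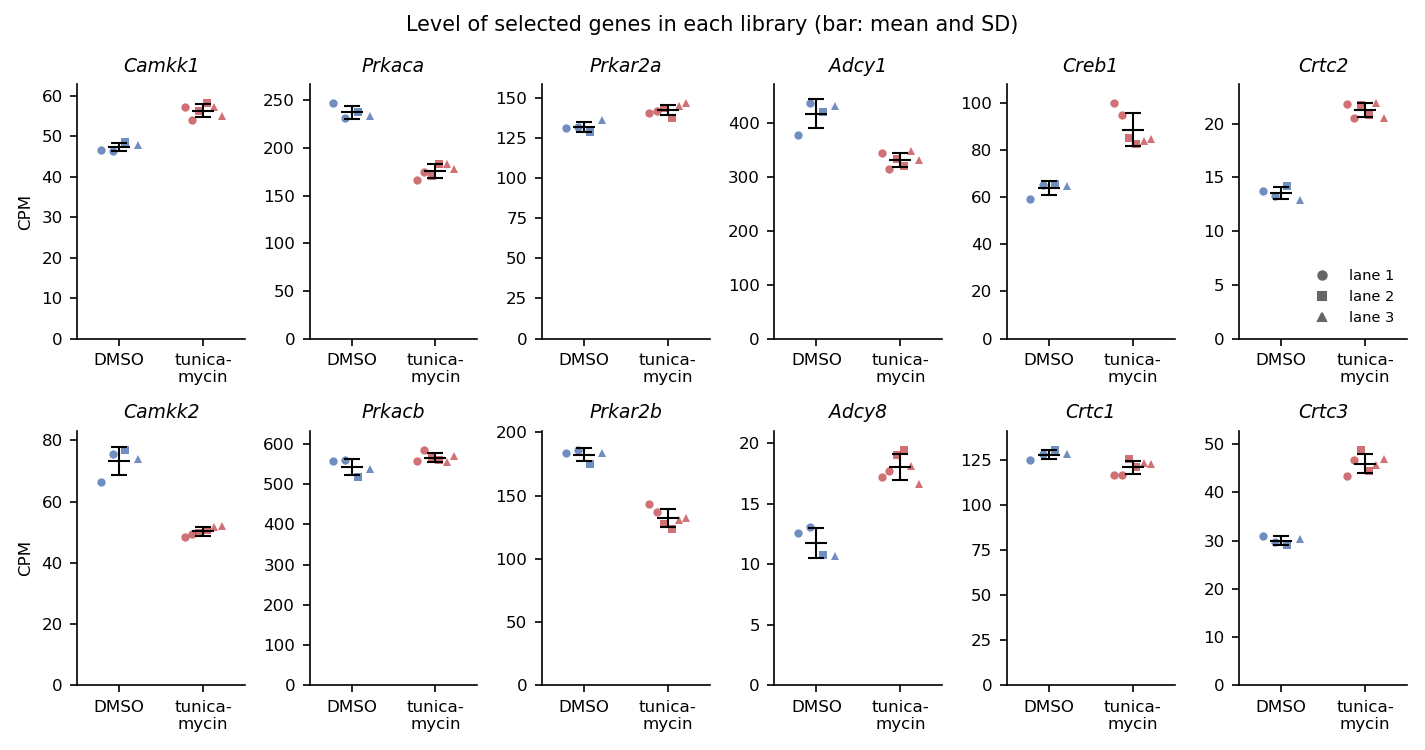
CPM of selected members in each library (points, shaped by sequencing lane; black bars are the mean and SD), DMSO n = 4 and tunicamycin n = 6, each panel with its own axis from 0. Camkk2 and Camkk1 separate in opposite directions, Prkaca falls while the ranges of Prkacb overlap, and Creb1, Crtc2 and Crtc3 rise without overlap.

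PKA is a tetramer of catalytic and regulatory subunits, and the subunit genes of its catalytic pair and its type II regulatory pair moved apart. The catalytic alpha gene Prkaca was at 247, 232, 238 and 234 CPM with DMSO and 166 to 184 CPM, median 176, with tunicamycin, a fall of 26.4%. Prkacb, the catalytic beta gene, was at 558, 560, 518 and 538 CPM with DMSO and 556 to 586 CPM, median 563, with tunicamycin, so that its groups overlapped. Its log2 fold change of 0.05 ± 0.03 was not called (adjusted p = 0.159, edgeR) and was -0.07 with upper-quartile scaling. The Prkacb/Prkaca ratio went from 2.29 to 3.22 without overlap, a log2 difference of 0.49 ± 0.04 (two-sided exact permutation test, adjusted p = 0.00659).

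Among the regulatory subunits the type II pair diverged in the same way. Prkar2b, the neuron-rich type II beta subunit, was at 184, 186, 175 and 184 CPM with DMSO and 124 to 144 CPM, median 131, with tunicamycin. All 6 tunicamycin libraries were below the lowest DMSO library, with a log2 fold change of -0.47 ± 0.04 (adjusted p = 3.59e-10, edgeR). Prkar2a was at 131, 132, 129 and 136 CPM with DMSO and 137 to 147 CPM, median 143, with tunicamycin. Its log2 fold change of 0.10 ± 0.03 was called higher (adjusted p = 0.00766, edgeR), but was -0.01 and not called with upper-quartile scaling. On the 8 libraries numbered 1 to 4, Prkar2a was not called with a replicate block or without one (edgeR, adjusted p = 0.125 and 0.0535). The Prkar2b/Prkar2a ratio went from 1.38 to 0.928, a log2 difference of -0.57 ± 0.04 (two-sided exact permutation test, adjusted p = 0.00659).

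The type I subunits had log2 fold changes near 0. Prkar1a, the member with the full cAMP response element in a promoter window, was at 768 ± 19.0 CPM with DMSO and 739 ± 13.3 CPM with tunicamycin (log2 fold change -0.06 ± 0.03, edgeR adjusted p = 0.0571). It was called lower with upper-quartile scaling (-0.18) and without DMSO replicate 2 or tunicamycin replicate 2 (-0.07 in both). Prkar1b fell from 452 ± 17.9 to 425 ± 13.8 CPM with overlapping groups (log2 fold change -0.10 ± 0.03, edgeR adjusted p = 0.0132), a call lost without DMSO replicate 3 and with no filter on low counts (adjusted p = 0.0839 and 0.0670). The Prkar1b/Prkar1a ratio was 0.588 and 0.574, a log2 difference of -0.03 ± 0.04 that did not pass (two-sided exact permutation test, adjusted p = 0.419). Summed per exonic kilobase, the 4 regulatory genes stood to the 2 catalytic genes as 2.33 with DMSO and 2.52 with tunicamycin, a log2 difference of 0.12 ± 0.02 (two-sided exact permutation test, adjusted p = 0.00659). This sum depends on the lengths used: with no length correction the difference was -0.02 and did not pass (exact permutation test, adjusted p = 0.348).

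Adenylyl cyclases make the cAMP that PKA reads, and ADCY1 and ADCY8 are the isoforms stimulated by calcium-calmodulin. These went in opposite directions. Adcy1 was at 377, 436, 420 and 432 CPM with DMSO and 314 to 347 CPM, median 331, with tunicamycin, and fell by a log2 fold change of -0.34 ± 0.04 (adjusted p = 3.1e-07, edgeR). Adcy8 (chromosome 15, 64697084 to 64922296, minus strand) was at 12.6, 13.1, 10.8 and 10.7 CPM with DMSO and 16.6 to 19.5 CPM, median 17.9, with tunicamycin. Adcy8 was the member with the lowest level per length, at 1.44 CPM per exonic kilobase with DMSO, against 33.2 for Adcy1. The Adcy8/Adcy1 ratio of CPM went from 0.0283 to 0.0545, a log2 difference of 0.95 ± 0.11 with no overlap (two-sided exact permutation test, adjusted p = 0.00659). Adcy1 still had the far higher counts of the 2 in every library.

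The other cyclases fell or were not called. Adcy5, which calcium inhibits, was at 186, 183, 190 and 178 CPM with DMSO and 122 to 139 CPM, median 132, with tunicamycin (log2 fold change -0.50 ± 0.03, edgeR adjusted p = 4.2e-11). Adcy3, the cyclase of primary cilia, fell from 55.3 ± 2.45 to 47.5 ± 1.87 CPM without overlap (log2 fold change -0.23 ± 0.04, edgeR adjusted p = 2.93e-05). Its value is uncertain, since 22.1% of its exonic bases overlap Cenpo, which went from 4.36 to 8.30 CPM, and the kit does not mark strand. Adcy2 fell from 108 ± 2.52 to 102 ± 3.16 CPM with overlapping groups (log2 fold change -0.10, edgeR adjusted p = 0.0112; 0.0931 with no filter on low counts). Adcy9 was at 32.9 ± 1.77 and 31.7 ± 1.24 CPM and was not called (adjusted p = 0.258, edgeR), although with upper-quartile scaling it was called lower (-0.18). Of 22 other genes of the cAMP branch 12 were called lower and 6 higher, with a median of -0.21. Akap5, the anchor that holds PKA and calcineurin at the postsynaptic density, fell from 54.6 to 33.9 CPM (log2 fold change -0.70). Pde4b, a phosphodiesterase that breaks down cAMP, rose from 55.5 to 89.8 CPM (0.68).

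**Figure D3:**
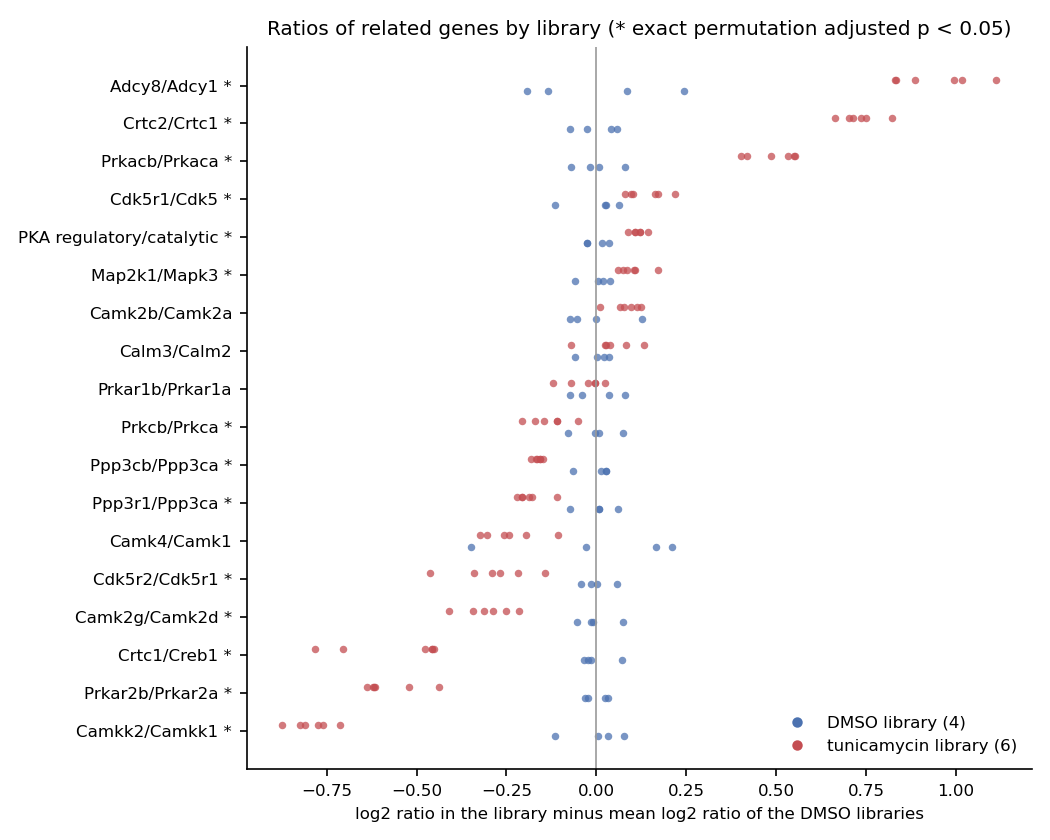
Log2 ratio of related members in each library minus the DMSO mean, for 18 ratios; points are libraries, coloured by group, and an asterisk marks an adjusted p under 0.05. The Adcy8/Adcy1, Crtc2/Crtc1 and Prkacb/Prkaca ratios lie above the DMSO libraries in all 6 tunicamycin libraries, and Camkk2/Camkk1, Prkar2b/Prkar2a and Crtc1/Creb1 below; Calm3/Calm2 and Prkar1b/Prkar1a overlap.

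Ratios of related members were computed in each library for 18 pairs or sums, and p-values were adjusted over the 18. With 4 and 6 libraries the smallest possible p is 0.00476 and the smallest adjusted p here was 0.00659. Of the 18 ratios 14 passed, and 13 of these had no overlap between the groups. The ratios that did not pass were Camk2b/Camk2a, Camk4/Camk1, Calm3/Calm2 and Prkar1b/Prkar1a. When libraries were permuted only within their sequencing lane, the same number of ratios, 14, passed.

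PKC answers calcium and diacylglycerol. Prkce, a calcium-independent isoform, was at 423, 435, 448 and 440 CPM with DMSO and 355 to 369 CPM, median 366, with tunicamycin. Its groups did not overlap, and it fell by a log2 fold change of -0.27 ± 0.03 (adjusted p = 3.93e-08, edgeR). The calcium-dependent Prkca was at 344 ± 16.8 and 351 ± 8.72 CPM and was not called (adjusted p = 0.596, edgeR), although with upper-quartile scaling it was called lower (-0.09). Prkcb went from 195 ± 15.7 to 182 ± 5.51 CPM with overlapping groups and was called lower (log2 fold change -0.11 ± 0.04, edgeR adjusted p = 0.0329). That call was lost in 8 of the 15 alternatives. They were DESeq2 and the fits without DMSO replicate 2, 3 or 4 or without tunicamycin replicate 1, 2, 4 or 5, with adjusted p of 0.0584 to 0.157. On the 8 libraries numbered 1 to 4, Prkcb was not called with a replicate block or without one (edgeR, adjusted p = 0.0806 and 0.0721). The Prkcb/Prkca ratio went from 0.567 to 0.517 with overlapping groups (log2 difference -0.13 ± 0.04, two-sided exact permutation test, adjusted p = 0.0122). Of 14 other genes of the PKC branch 3 rose and 4 fell. Marcks, the abundant PKC substrate at the membrane, fell from 349 to 252 CPM (log2 fold change -0.48), and Prkd1, a kinase activated by PKC, rose from 11.4 to 14.5 CPM (0.33).

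Calcineurin, the calcium-calmodulin phosphatase that opposes these kinases, is a dimer of a catalytic A and a regulatory B subunit. The main catalytic gene Ppp3ca was at 509, 516, 542 and 540 CPM with DMSO and 534 to 590 CPM, median 541, with tunicamycin, and was not called (log2 fold change 0.06 ± 0.04, edgeR adjusted p = 0.125; -0.05 with upper-quartile scaling). It was called higher with no filter on low counts (0.08, adjusted p = 0.0351). Ppp3cb, the other catalytic member, went from 420 ± 12.2 to 394 ± 18.5 CPM with overlapping groups (log2 fold change -0.10 ± 0.04, edgeR adjusted p = 0.0204). Its log2 fold change was 0.01 in lane 1 alone and -0.12 and -0.22 in the other lanes, and its call was lost without a filter on low counts, without DMSO replicate 4 and without tunicamycin replicate 4 or 5 (adjusted p 0.0508 to 0.123). The call was also lost on the 8 libraries numbered 1 to 4, with a replicate block and without one (edgeR, adjusted p = 0.185 and 0.102). Ppp3r1, the regulatory subunit, fell from 324 ± 7.92 to 300 ± 11.5 CPM without overlap (log2 fold change -0.12 ± 0.03, edgeR adjusted p = 0.00362). Its value is uncertain, since 14.3% of its exonic bases overlap Wdr92, which was at 11.6 and 12.6 CPM.

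Relative to Ppp3ca, both the other catalytic gene and the regulatory gene went down. These ratios separated the groups even where single genes overlapped, though the uncertainty of Ppp3r1 carries over to its ratio. Ppp3cb/Ppp3ca went from 0.797 to 0.712 (log2 difference -0.16 ± 0.02) and Ppp3r1/Ppp3ca from 0.616 to 0.542 (-0.18 ± 0.03). Both had an adjusted p of 0.00659 in the two-sided exact permutation test. Of 11 other genes of the calcineurin branch 4 were called higher and 3 lower, with a median of 0.07. Rcan1, a calcineurin inhibitor, rose from 46.8 to 69.5 CPM (log2 fold change 0.56). Fkbp1a, which binds the calcineurin inhibitor FK506, fell from 355 to 287 CPM (-0.31).

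The MAPK cascade was represented by the exchange factor Rasgrf1, the kinase Map2k1 (MEK1) and its substrate Mapk3 (ERK1), and all 3 fell. Mapk3 was at 170, 162, 161 and 156 CPM with DMSO and 115 to 131 CPM, median 123, with tunicamycin. Map2k1 was at 155, 154, 156 and 150 CPM with DMSO and 115 to 129 CPM, median 125, with tunicamycin. Neither gene's groups overlapped, and the log2 fold changes were -0.42 ± 0.04 and -0.32 ± 0.03 (edgeR, adjusted p = 7.4e-10 and 1.81e-08). The Map2k1/Mapk3 ratio went from 0.947 to 1.02, so the fall of Mapk3 was the larger (log2 difference 0.10 ± 0.03, two-sided exact permutation test, adjusted p = 0.00659). Rasgrf1, which couples calcium-calmodulin to Ras, went from 30.4 ± 2.72 to 27.5 ± 0.670 CPM with overlapping groups (log2 fold change -0.15 ± 0.05, edgeR adjusted p = 0.0169). Its log2 fold change was -0.09 without DMSO replicate 3 and was then not called (adjusted p = 0.140, edgeR).

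The other genes of the MAPK branch moved in both directions. Of 26 tested, 13 were called higher, 8 lower and 5 were not called, with a median log2 fold change of 0.09. Spry4, an inhibitor of receptor tyrosine kinase signalling to ERK that is itself induced by ERK activity, rose from 47.9 to 120 CPM (log2 fold change 1.32). Mknk2, a kinase downstream of ERK that phosphorylates the translation factor eIF4E, fell from 65.1 to 43.4 CPM (-0.59).

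CDK5 is a kinase of neurons that needs the activator p35 (Cdk5r1) or p39 (Cdk5r2). All 3 genes were called lower. Cdk5r2 was at 144, 146, 157 and 144 CPM with DMSO and 98.3 to 124 CPM, median 116, with tunicamycin (log2 fold change -0.37 ± 0.05, edgeR adjusted p = 1.34e-05). Cdk5 itself was at 105, 91.3, 96.7 and 93.2 CPM with DMSO and 78.3 to 87.0 CPM with tunicamycin (log2 fold change -0.23 ± 0.04, edgeR adjusted p = 4.8e-05). Cdk5r1 fell least, from 341 ± 5.48 to 323 ± 8.41 CPM (-0.09 ± 0.03, edgeR adjusted p = 0.0117), a call lost without DMSO replicate 3 and with no filter on low counts (adjusted p = 0.0655 and 0.121). The call was also lost with a replicate block on the 8 libraries numbered 1 to 4 (edgeR, adjusted p = 0.0527). None of the 3 had overlapping groups. The Cdk5r2/Cdk5r1 ratio went from 0.434 to 0.356 (log2 difference -0.29 ± 0.05) and Cdk5r1/Cdk5 from 3.54 to 3.89 (0.14 ± 0.04), each with an adjusted p of 0.00659 in the two-sided exact permutation test. Of 8 other genes of the branch 4 fell and none rose. Dpysl2, the microtubule-associated CDK5 substrate CRMP2, fell from 377 to 199 CPM (log2 fold change -0.93).

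**Figure D4:**
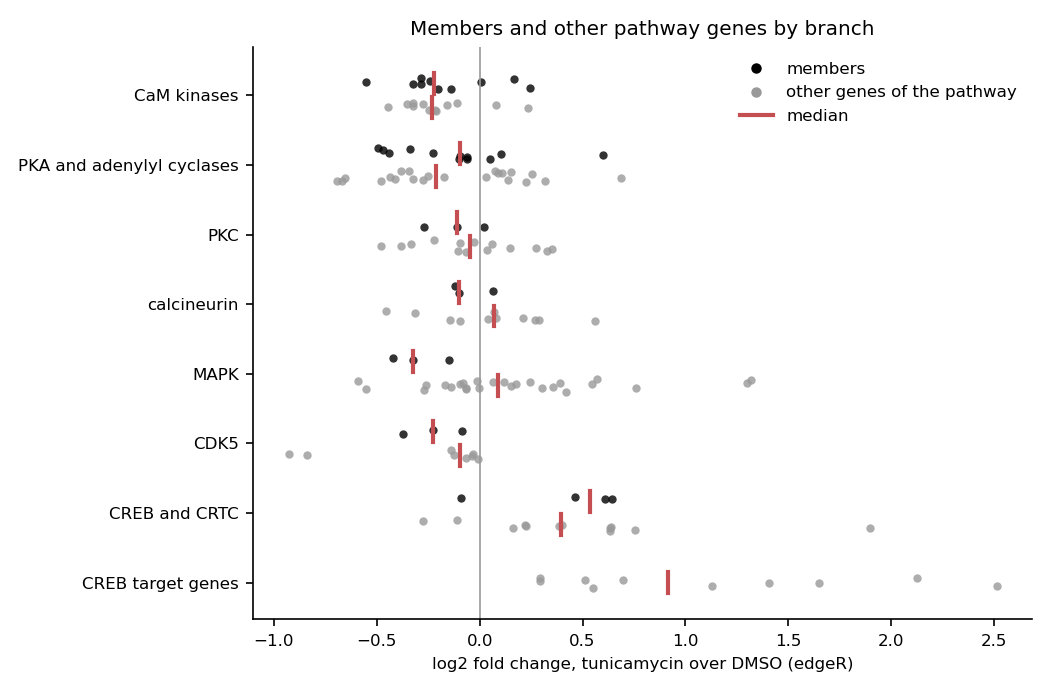
Log2 fold changes of tunicamycin over DMSO (horizontal axis) by branch, one point per gene, members in black, other genes of each pathway list in grey and medians as red lines. The MAPK and CDK5 members are all below 0, 3 of the 4 CREB and CRTC members lie between 0.47 and 0.64, and all 10 CREB target genes are above 0.

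CREB and its coactivators were the branch in which most members rose. Creb1 (chromosome 1, 64532645 to 64604548, plus strand) was at 59.2, 65.3, 65.6 and 64.9 CPM with DMSO and 82.8 to 99.8 CPM, median 85.1, with tunicamycin. The highest levels were those of tunicamycin replicates 1 and 2, both from lane 1, and the log2 fold change was 0.64 in lane 1 alone, 0.33 in lane 2 and 0.36 in lane 3, against 0.47 over all libraries. Crtc2, the coactivator best known from glucose metabolism, was at 13.7, 13.3, 14.2 and 12.9 CPM with DMSO and 20.5 to 21.9 CPM, median 21.3, with tunicamycin. Crtc3 was at 31.0, 29.7, 29.0 and 30.3 CPM with DMSO and 43.3 to 48.9 CPM, median 46.2, with tunicamycin. For each of these 3 genes every tunicamycin library was above every DMSO library. Crtc2 had the largest rise of all members (log2 fold change 0.64 ± 0.05, edgeR adjusted p = 4.5e-10), followed by Crtc3 (0.61 ± 0.04, adjusted p = 3.35e-11).

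Crtc1, the form most studied in hippocampal neurons, went the other way by a small amount. It was at 125, 128, 131 and 128 CPM with DMSO and 117 to 125 CPM, median 122, with tunicamycin, and the groups overlapped. Its log2 fold change of -0.09 ± 0.03 (adjusted p = 0.0175, edgeR) was not called without a filter on low counts or without DMSO replicate 3 or 4 (adjusted p 0.0627 to 0.142). The Crtc2/Crtc1 ratio went from 0.106 to 0.176 (log2 difference 0.73 ± 0.04) and Crtc1/Creb1 from 2.01 to 1.37 (-0.55 ± 0.07), each with an adjusted p of 0.00659 in the two-sided exact permutation test. The printed Crtc3 window holds a CCAAT box and the printed Creb1 window none of the motifs searched. Whether this bears on their changes was not tested.

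Of 12 other listed genes of the CREB branch 9 were called higher and 2 lower, beside 31.8% and 32.5% of all tested genes. Their median log2 fold change was 0.39. Creb5, a CREB-related factor, rose from 7.16 to 26.8 CPM (log2 fold change 1.90), and Crebl2 fell from 11.99 to 9.96 CPM (-0.28) with overlapping groups. Of 10 listed CREB target genes all 10 were called higher, with a median of 0.91, and 9 had no overlap. Egr1, an immediate early transcription factor, rose from 48.9 to 281 CPM (log2 fold change 2.51). This target list and the list of other CREB branch genes were chosen with results of these data known. Neither is independent evidence of its direction. Over all 106 listed genes of the branches that were not members, the targets set apart, 105 were tested. Of these 36 were called higher and 43 lower, with a median of -0.03.

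**Figure D5:**
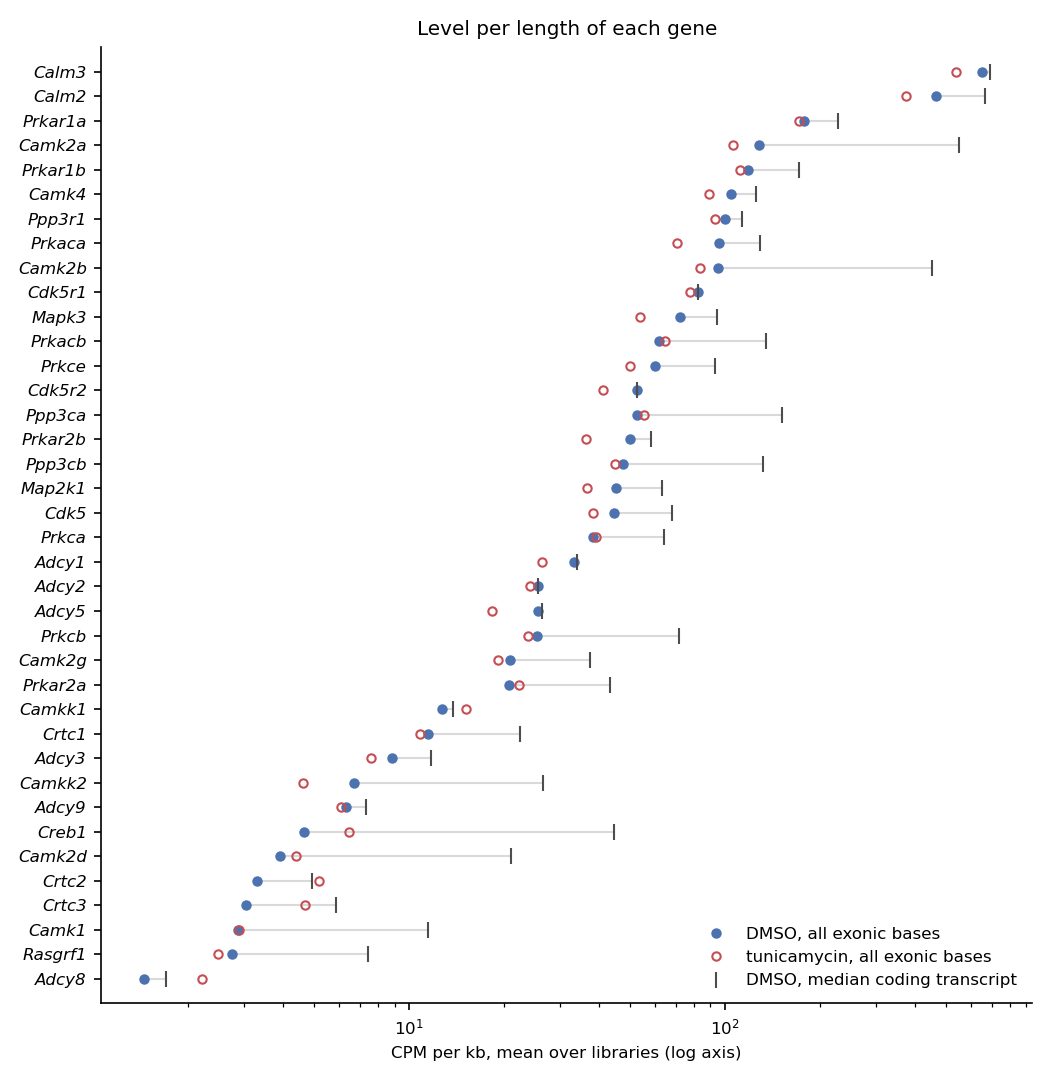
Mean level of each member in CPM per exonic kilobase (log axis) with DMSO (n = 4, filled) and tunicamycin (n = 6, open), in the order of the DMSO level; upright ticks give the DMSO level by coding transcript length. Calm3 (652) and Calm2 (466) lead, Prkar1a (178) is next, and Adcy8 (1.44) is the lowest.

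Levels per length with DMSO ranged over the list from 652 CPM per exonic kilobase for Calm3 to 1.44 for Adcy8. After Calm3 and Calm2 came Prkar1a (178), Camk2a (128) and Prkar1b (119). The coactivators and CREB that rose were near the low end, with Creb1 at 4.64, Crtc2 at 3.31 and Crtc3 at 3.05 CPM per kilobase. The order depends on the length used. With the median length of protein-coding transcripts, Camk2a was at 553 and next after calmodulin, Creb1 at 44.6 and Camk2d at 21.02 (3.90 by exonic length), while Calm3 and Calm2 were again the highest and Adcy8 the lowest.

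The authors' deposited table of upregulated genes lists 7 of the members and that of downregulated genes 26, while 5 are in neither. Camk4 and Prkar1a are listed as downregulated in the authors' deposited table, at log2 fold changes of -0.25 and -0.07 with adjusted p of 0.0140 and 0.00923, and were not called by edgeR here.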

How the data were processed

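Polyadenylated RNA of 4 DMSO and 6 tunicamycin libraries was measured. Per the labels' protocols, the kit was TruSeq v2, in which strand is not marked, and reads were single ends of 50 bases. Per the submitters' processing notes, the build was mm10 and the tools included STAR 2.5.2b, Subread 1.5.1 with featureCounts, DESeq2, and FastQC 0.11.5, with no roles stated. For the annotation release and the counting settings no source used here gives a value.

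The authors deposited whole-number counts per gene and library, not normalized. The authors also deposited tables of up- and downregulated genes with a log2 fold change and an adjusted p-value, which are quoted as theirs only.

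Symbols and positions came from GENCODE M21 on GRCm38. The test was edgeR 4.0.16's quasi-likelihood F test (robust, two-sided) in R 4.3.3 with TMM scaling and the filterByExpr filter, which kept 15660 genes, with Benjamini-Hochberg adjustment. The SE of a log2 fold change was taken as its absolute value over the root of its F statistic. CPM are counts per 1000000 counts of a library. Log2 ratios used a pseudocount of 0.5 counts and a two-sided exact permutation test over all 210 assignments of libraries to groups. A value was called uncertain when at least 10% of a gene's exonic bases overlap another gene, or at least 10% of its 50-base words occur in another gene. The code was tested on simulated data.

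The members and lists were chosen with earlier results of these data known. All members are named. Of each list of other pathway genes the called gene with the largest rise and the one with the largest fall were named, with a mean of at least 1 CPM in 1 group. No 2 libraries were alike within sampling noise (chi-square per degree of freedom at least 2.07 within groups). Lanes are those in the file names.

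Replicate numbers 1 to 4 occur in both groups. Same-numbered libraries did not deviate together, so the numbers were not treated as pairs. Alternatives were DESeq2 1.42.0, upper-quartile scaling, other filters, lane as a term, a replicate block, each library left out, each lane alone, other pseudocounts and, chosen after seeing the data, coding lengths, a 1.25-fold minimum and the 8 numbered libraries without a block.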

Additional observations from a re-analysis of the deposited data

Results flagged for a closer look

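Of 112 groups of member levels and ratios checked, 6 held a library far from the others, where chance flags about 1 in 20 groups. Tunicamycin replicate 1 was lowest for Prkar1b, at 397 CPM with the next at 425. DMSO replicate 1 was lowest for Prkcb, at 172 CPM with the next at 200, and for Creb1, at 59.2 CPM with the next at 64.9. DMSO replicate 4 was highest for Ppp3cb, at 438 CPM with the next at 415. The log2 Ppp3cb/Ppp3ca ratio was lowest in DMSO replicate 3, at -0.39 with the next at -0.31, and the log2 Ppp3r1/Ppp3ca ratio was highest in tunicamycin replicate 6, at -0.81 with the next at -0.88. The part of these libraries in each difference is seen from the fits without them: Creb1 kept its call without DMSO replicate 1, and the call of Ppp3cb was lost without DMSO replicate 4.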

How the results depend on the processing

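Over the members, 7 were called higher and 24 lower with DESeq2, 5 and 28 with upper-quartile scaling (23.2% and 44.3% of all genes), 7 and 25 at a mean of at least 1 CPM, 8 and 19 with no filter, and 7 and 24 with lane as a term. Leaving out 1 library gave 7 higher in every case and 19 to 25 lower, beside 30.5% to 32.0% and 29.9% to 32.1% of all tested genes in the same fits. Without DMSO replicate 1 the counts were 7 and 25, and without tunicamycin replicate 1 they were 7 and 24. Asking also for a 1.25-fold change left 4 higher and 9 lower. Signs turned under upper-quartile scaling for Camk1 (-0.11), Prkacb (-0.066), Prkar2a (-0.012), Prkca (-0.092) and Ppp3ca (-0.051), of which Prkar2a alone was called in the main test. With 1 library left out the values of Prkca ran from -0.014 (without DMSO replicate 1) to 0.045 and those of Camk1 from -0.033 to 0.033. In lane 1 alone Ppp3cb was 0.013. Ratios that passed numbered 14 to 16 with 1 library left out, and 13 with no length in the PKA sum, which then turned to -0.017. The cause of these changes was not tested.

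The replicate block on the 8 libraries numbered 1 to 4 called 6 members higher and 21 lower, and the fit of the same libraries without a block 6 and 22. Same-numbered libraries had correlations of -0.22, 0.01, -0.06 and -0.07, and none correlated best with its own number, so the pairing is only one of number. The block lost the calls of Prkar2a, Prkcb, Ppp3cb and Cdk5r1, and the fit without it those of Prkar2a, Prkcb and Ppp3cb. No limit by depth was tested, and Adcy8, at 10.7 CPM in its lowest library, kept its call in all 15 alternatives.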

Other observations

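Some listed families of enzymes next to the members are described here, chosen after their values were seen, with edgeR calls and log2 fold changes. Among the kinases that ERK activates, Mknk1 rose from 20.97 to 35.7 CPM (log2 fold change 0.76) while Mknk2 fell, and Rps6ka2 rose from 54.7 to 80.4 CPM (0.55) while Rps6ka1 fell from 9.69 to 6.61 CPM (-0.55); Rps6ka3 rose (0.15) with overlapping groups and Rps6ka5 was not called (0.07). Among the phosphodiesterases, Pde4d and Pde10a rose (0.26 and 0.32), as did Pde4b, and Pde4a and Pde1b fell (-0.48 and -0.34), all without overlap between the groups, while Pde1a and Pde2a fell (-0.25 and -0.41) with overlap. The salt-inducible kinases, which keep CRTC proteins out of the nucleus, all rose: Sik1 from 28.0 to 36.9 CPM, Sik2 from 33.2 to 56.5 CPM and Sik3 from 180 to 283 CPM.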
